A study of Mus musculus with 9 samples.

Results

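The EGF receptor family was examined in mouse liver after feeding with a high-fat diet (HFD) of which one portion had been kept frozen (HFDfre) and another merely refrigerated (HFDfri). The members were 10 of the 33211 genes in the deposited count table, taken by symbol: the receptors Egfr, Erbb2, Erbb3 and Erbb4, the ligands Egf, Tgfa, Hbegf, Areg and Btc, and the feedback inhibitor Errfi1. They were chosen by symbol with the log2 fold changes of the storage comparison already known, in which Egfr had been named for its higher level in HFDfri. The values of the members on that comparison are therefore given as a description, with no p-value.

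Bulk RNA-seq was available for 5 HFDfre and 4 HFDfri livers of C57BL/6 mice, a standard inbred strain (C57BL6/J in the methods of the study). The mice were wild-type males, 8 weeks old at the start, and both groups ate the same high-fat diet for 7 weeks, which was stored at -20 °C for HFDfre and at 4 °C for HFDfri, for 7 days before use according to the methods of the study. No group on ordinary chow was analysed here, so the groups show the effect of storage within high-fat feeding only. The labels do not say that each library came from a separate animal, and p-values then measure only the spread between these libraries.

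The library totals ran from 58614917 to 69353439 counts. Major urinary protein genes took 5.12% to 8.94% of the counts in HFDfre and 9.17% to 14.4% in HFDfri, and mitochondrial genes took 11.4% to 19.8% and 8.93% to 13.6%. A ribosomal RNA-like locus, Gm26924, took 1.20% to 11.1% in HFDfre and 0.466% to 5.21% in HFDfri. All 5 hepatocyte markers listed (Alb, Ttr, Apoa1, Cps1 and Hnf4a) were detected, with a summed level of 71000 to 99200 CPM (counts scaled to the size of each library).

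The receptors of this family are tyrosine kinases at the cell surface. A ligand makes 2 receptors pair, the pair phosphorylates itself, and the signal runs to the RAS-MAPK and PI3K pathways until the receptor is taken into the cell and degraded. In the liver, EGFR is abundant on hepatocytes, where it supports survival and regeneration and clears EGF from the blood. ERBB2 has no known ligand of its own and ERBB3 has a weak kinase, so both act mainly in pairs with other members, and ERBB4 binds neuregulins. Errfi1, also called Mig6, encodes a protein that binds the kinase of EGFR and blocks it, and its gene is switched on by the pathway that it restrains.

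Egfr and Errfi1 were the most abundant members, and their promoters are shown because these genes carry most of the family's reads. Egfr (ENSMUSG00000020122) lies on the plus strand of chromosome 11, from 16752203 to 16918158 (GRCm38). Errfi1 (ENSMUSG00000028967) lies on the plus strand of chromosome 4, from 150853919 to 150868892. The sequences are from RefSeq on GRCm38.p6, plus strand, and run from 250 bases before the annotated start to 30 bases after it, at chr11:16751953-16752232 for Egfr and at chr4:150854820-150855099 for the second of the 2 annotated starts of Errfi1. Capitals mark 3 motifs searched on both strands, the GC box (GGGCGG), the TATA box core (TATAAA) and the CCAAT box (CCAAT).
Egfr: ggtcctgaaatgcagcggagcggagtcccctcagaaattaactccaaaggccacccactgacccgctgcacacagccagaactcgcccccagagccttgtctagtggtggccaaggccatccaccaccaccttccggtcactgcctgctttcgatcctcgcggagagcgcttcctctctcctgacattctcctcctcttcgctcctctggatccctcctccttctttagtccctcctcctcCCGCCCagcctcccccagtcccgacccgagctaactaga
Errfi1: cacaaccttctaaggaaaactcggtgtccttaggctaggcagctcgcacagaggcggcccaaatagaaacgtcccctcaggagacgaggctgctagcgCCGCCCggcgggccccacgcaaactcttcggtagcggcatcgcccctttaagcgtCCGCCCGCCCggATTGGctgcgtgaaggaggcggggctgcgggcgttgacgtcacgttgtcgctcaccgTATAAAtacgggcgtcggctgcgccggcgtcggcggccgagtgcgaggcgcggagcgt
The Egfr window held 1 GC box, and neither of the other motifs was in it. The Errfi1 window held 3 GC boxes, of which a pair overlap, with 1 TATA box core and 1 CCAAT box. The window of the other annotated start of Errfi1, which begins at position 150853546, held none of these motifs and had 42% G and C, against 66.7% in the window shown. Of the 32851 promoter windows in the table, which reach 20 bases further than the printed stretch, 35.7% held a GC box, 13.6% a TATA box core and 37.4% a CCAAT box. A STAT site (TTCNNNGAA), found in 8.3% of all windows, was in no window of Egfr or Errfi1 when the full window was searched. A match is a description of letters only, and no site of binding was measured. Promoter windows were found for 8 of the 10 members, and Erbb3 and Hbegf had none.

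Egfr had the largest log2 fold change of the members. Its level in HFDfre was 145 CPM in replicate 1, 191 in replicate 2, 124 in replicate 3, 177 in replicate 4 and 161 in replicate 5. In HFDfri it was 922 CPM in replicate 1, 248 in replicate 2, 798 in replicate 3 and 327 in replicate 4. Every HFDfri library lay above every HFDfre library, but HFDfri 1 and HFDfri 3 were far above HFDfri 2 and HFDfri 4. HFDfri 1 was also less like the other libraries over all tested genes. Its log2 CPM correlated with theirs at 0.9588 to 0.9637, and the remaining pairs of libraries at 0.9592 to 0.9774. HFDfre livers averaged 159.6 ± 26.3 CPM (SD, n = 5), and HFDfri livers averaged 574 ± 336 CPM (SD, n = 4). The fitted log2 fold change, HFDfri minus HFDfre, was 1.85 ± 0.33 (SE), a 3.60-fold higher level. The libraries of HFDfre spread over a 1.54-fold range and those of HFDfri over a 3.71-fold range. With each library left out in turn, the log2 fold change of Egfr ran from 1.51 without HFDfri 1 to 2.10 without HFDfri 2. In bulk samples, more cells of a type and more RNA per cell cannot be told apart. The annotation places an antisense gene, Egfros, inside Egfr on the opposite strand, and the exons of the pair do not overlap.

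**Figure D1:**
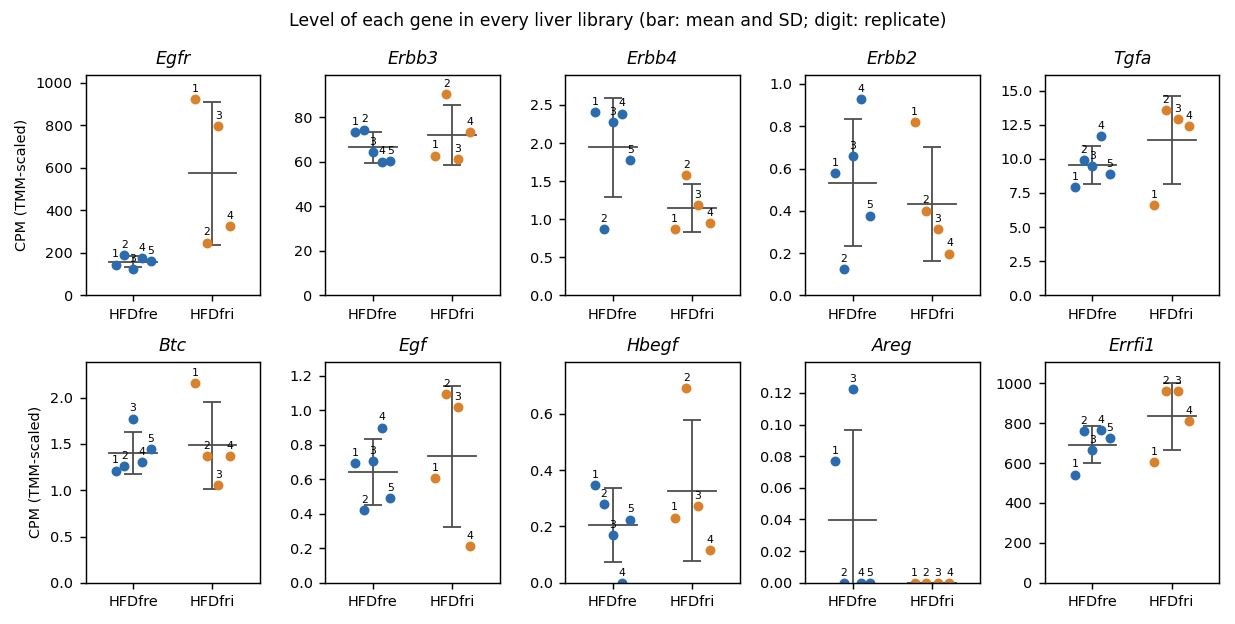
Level of each of the 10 genes in CPM after TMM scaling (vertical axes, linear from 0, separate for each gene) in the 5 HFDfre and 4 HFDfri livers. Points are libraries with their replicate number, and the bars give the mean and SD. For Egfr the HFDfre livers sit between 124 and 191 CPM, and the HFDfri livers between 248 and 922 CPM.

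Of the 10 members, 9 had enough counts to be tested, and 1 of them, Egfr, passed an adjusted p of 0.05 in edgeR's quasi-likelihood fit across all 14220 tested genes, where 1.05% of genes passed and 0.499% passed with a higher level in HFDfri. It was also the 1 member whose groups did not overlap, against 7.69% of tested genes, or 4.02% with a higher level in HFDfri. Since the members were chosen with this comparison known, nothing is read from these counts. Of the 9, 7 were higher and 2 lower in HFDfri, and their median on the log2 scale was 0.20, against -0.01 for all tested genes.

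The other receptors overlapped between the diets. Erbb3 (ENSMUSG00000018166, chromosome 10, 128567523 to 128589652) had 73.4, 74.4, 64.1, 60.01 and 60.4 CPM in HFDfre replicates 1 to 5. In HFDfri it had 62.7, 90.2, 61.2 and 73.4 CPM in replicates 1 to 4. The groups overlapped, and HFDfri 1 and HFDfri 3, the libraries highest in Egfr, were the lowest of HFDfri in Erbb3. Its log2 fold change was 0.11 ± 0.13 (SE). It changed sign without HFDfri 2, to -0.02.

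Erbb4, a neuregulin receptor, was expressed at a low level. It had 2.41, 0.872, 2.28, 2.39 and 1.78 CPM in the HFDfre replicates in order of number, and 0.872, 1.58, 1.18 and 0.954 CPM in the HFDfri replicates. HFDfre 2 was as low as the lowest HFDfri library, and the groups overlapped. The log2 fold change was -0.76 ± 0.31 (SE), and it stayed between -0.95 and -0.66 in the 19 alternatives.

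Erbb2, the receptor with no ligand of its own, was near the limit of detection. Its estimated counts were 30, 8, 43, 66 and 27 in the HFDfre replicates and 46, 29, 23 and 12 in the HFDfri replicates. The groups overlapped widely, with a log2 fold change of -0.31 ± 0.56 (SE). Exons of Erbb2 overlap those of Mien1 on the opposite strand, and whether the counting used strand is not stated, so its values are uncertain.

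Levels of different genes were compared per length, as CPM per kilobase of annotated exon. Among the receptors, HFDfre livers had 14.1 ± 2.33 for Egfr, 11.05 ± 1.16 for Erbb3, 0.157 ± 0.0528 for Erbb4 and 0.102 ± 0.0579 for Erbb2 (CPM per kilobase, SD, n = 5). The ranges of Egfr and Erbb3 overlapped in HFDfre, although Egfr was the higher of the pair in each of the 5 libraries. In HFDfri the same levels were 50.7 ± 29.6, 11.95 ± 2.22, 0.0928 ± 0.0255 and 0.083 ± 0.052 (SD, n = 4). There Egfr stood apart from Erbb3 without overlap, while Erbb4 and Erbb2 overlapped in both groups. The ratio of Egfr to Erbb3 per length was between 1.03 and 1.56 in the HFDfre libraries. In HFDfri it was 7.81 in replicate 1, 1.46 in replicate 2, 6.93 in replicate 3 and 2.37 in replicate 4. HFDfri 2 thus lay inside the HFDfre range for this ratio. Egfr made up 50% to 60.1% of the summed receptor level per length in HFDfre and 59.1% to 88.4% in HFDfri. Both the ratio and this share contain the level of Egfr, so they restate its difference.

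**Figure D2:**
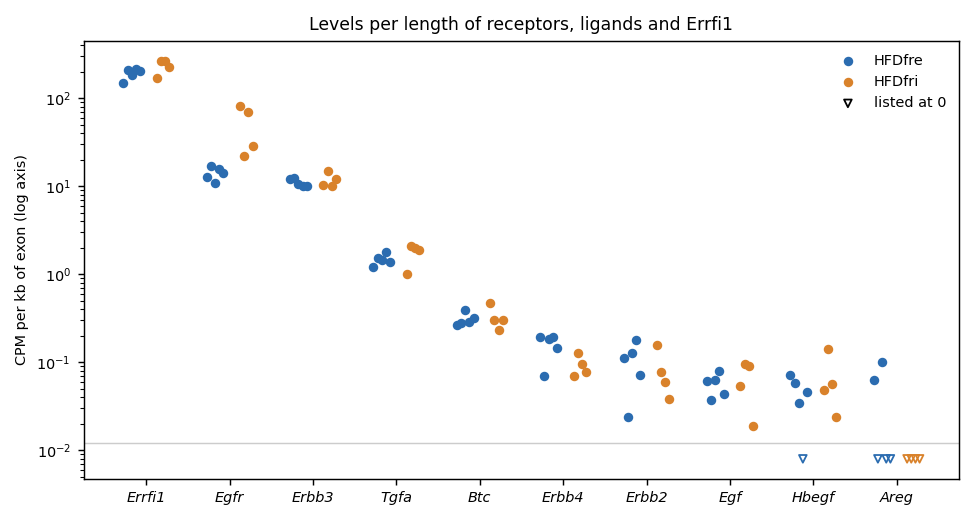
Level per length of each of the 10 genes, as CPM per kilobase of exon on a log axis, ordered by level, with 1 point per library. Open triangles under the line mark libraries in which a gene is listed at 0, which have no place on a log axis. Errfi1 lies highest at 151 to 269, and Areg is listed at 0 in every HFDfri library.

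Of the ligands, Tgfa was the most abundant. It encodes TGF-alpha, a ligand of EGFR made by hepatocytes themselves. It had 7.95, 9.89, 9.45, 11.7 and 8.86 CPM in HFDfre replicates 1 to 5, and 6.62, 13.6, 12.9 and 12.4 CPM in HFDfri replicates 1 to 4. In HFDfri 3 libraries were above every HFDfre library, and HFDfri 1, the library with the most Egfr, was below them all. The log2 fold change was 0.25 ± 0.19 (SE), from 0.16 without HFDfri 2 to 0.43 without HFDfri 1. Exons of Tgfa overlap those of Gm43917 on the opposite strand. Tgfa held 63.8% to 84.7% of the summed ligand level per length over the 9 libraries.

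Btc encodes betacellulin, a ligand of EGFR and ERBB4. Its level was 1.21 to 1.77 CPM in HFDfre with a median of 1.31, and 2.15, 1.37, 1.06 and 1.37 CPM in HFDfri replicates 1 to 4. HFDfri 1 was the highest of all libraries and HFDfri 3 the lowest, and the log2 fold change was 0.08 ± 0.25 (SE). It was -0.16 without HFDfri 1.

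Egf and Hbegf were close to the limit of detection. Egf, the ligand that gives the family its name and reaches the liver mainly from other organs, had 27 to 64 counts in the HFDfre libraries and 34, 79, 75 and 13 in HFDfri replicates 1 to 4. Its log2 fold change was 0.20 ± 0.44 (SE), and exons of 2 antisense genes overlap its own. Hbegf, a heparin-binding ligand, had 18, 18, 11, 0 and 16 counts in the HFDfre replicates and 13, 50, 20 and 7 in the HFDfri replicates. The groups of both genes overlapped, and the log2 fold change of Hbegf was 0.70 ± 0.79 (SE). It was 0.03 without HFDfri 2, and that of Egf was -0.06 without the same library.

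Areg, which encodes amphiregulin, was too low to be tested. It had 4 counts in HFDfre 1 and 8 in HFDfre 3, and it was listed at 0 in the other 7 libraries. These values are too low for a difference between the diets to be read at this depth. Per length, the levels of Egf, Hbegf and Erbb2 overlapped one another in both groups, and no order among these genes is drawn.

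Errfi1 was the most abundant member, at the 98.5th percentile of tested genes per length, and Egfr was at the 92.2nd. Errfi1 had 542, 761, 663, 766 and 725 CPM in HFDfre replicates 1 to 5, and 605, 962, 959 and 812 CPM in HFDfri replicates 1 to 4. In HFDfri 3 libraries were above every HFDfre library, and HFDfri 1 was below 4 of the 5. HFDfre livers averaged 691 ± 92.9 CPM (SD, n = 5), and HFDfri livers 834 ± 168 CPM (SD, n = 4), for a log2 fold change of 0.27 ± 0.15 (SE). The ratio of Errfi1 to Egfr RNA has Egfr in its denominator, the gene already named for its higher level in HFDfri. It is a description and not a further result. The level of Errfi1 per length was 11.8 to 16.9 times that of Egfr in the HFDfre libraries. It was 2.07 times in HFDfri 1, 12.2 times in HFDfri 2, 3.8 times in HFDfri 3 and 7.84 times in HFDfri 4. HFDfri 2 again lay among the HFDfre libraries, and the other 3 lay below them.

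**Figure D3:**
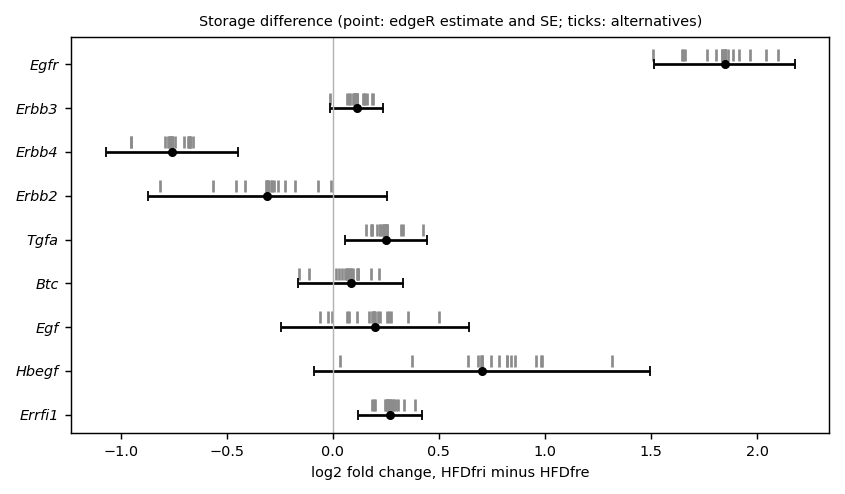
Log2 fold change, HFDfri minus HFDfre, of the 9 tested members, with the edgeR estimate and its SE as point and bar and the alternative settings as grey ticks. Egfr lies between 1.51 and 2.10 in all of the 19 alternatives, while the ticks of Erbb3, Egf and Btc fall on both sides of 0.

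The members were next compared within groups, which leaves the storage difference out. Deviations of log2 CPM from the group means were correlated over the 9 libraries for the 4 members with a mean of at least 5 CPM. The libraries share their depth scaling, and HFDfri 1 and HFDfri 3 hold most of the spread of Egfr, so these values are descriptions. Tgfa and Errfi1 varied together, with r = 0.897, and r stayed between 0.778 and 0.927 when each library was left out. Egfr and Erbb3 varied oppositely, with r = -0.726, from -0.859 without HFDfre 2 to -0.453 without HFDfri 2. Egfr and Tgfa had r = -0.511, which turned to 0.105 without HFDfri 1, and Egfr and Errfi1 had r = -0.287, which turned to 0.318 without the same library. The r of Erbb3 with Tgfa was 0.273 and with Errfi1 0.144, and both changed sign when a library was left out.

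The same measure was used to name the genes most like Egfr among 10122 other tested genes whose log2 CPM averaged 1 or more. The 6 with the highest r were Fam207a (0.979), Zfp612 (0.962), Camkk2 (0.959), Kri1 (0.959), Pprc1 (0.958) and Fbxl14 (0.958). Camkk2 encodes a kinase that activates AMPK, and Pprc1 encodes a coactivator related to PGC-1. Camkk2 had 5.34 to 5.75 CPM in HFDfre, and 11.4, 4.73, 9.001 and 5.91 CPM in HFDfri replicates 1 to 4. Pprc1 had 4.803 to 7.37 CPM in HFDfre, and 13.1, 6.17, 11.3 and 6.71 CPM in HFDfri. Both were high in HFDfri 1 and HFDfri 3 and stayed near the HFDfre range in the other pair. The 3 genes with the lowest r were Flt3l (-0.979), Otud1 (-0.965) and N4bp3 (-0.963). Flt3l, a cytokine gene, had 3.27 to 3.69 CPM in HFDfre, and 1.99, 3.04, 2.02 and 2.71 CPM in HFDfri. An r over 0.9 was found for 46 genes and an r under -0.9 for 28. With library totals in place of TMM scaling, the r of Fam207a was 0.762 and that of Flt3l -0.785.

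**Figure D4:**
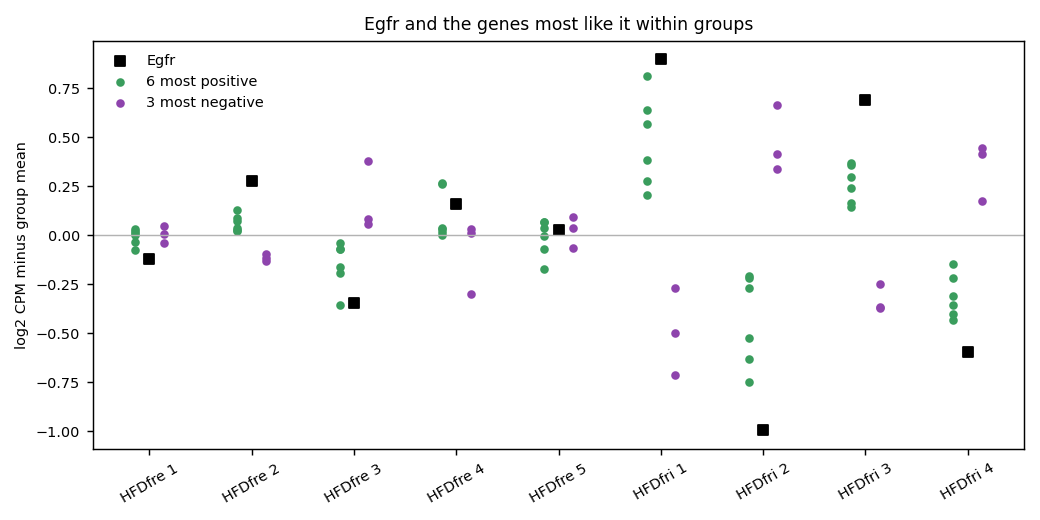
Log2 CPM minus the group mean (vertical axis, without a prior count) in each of the 9 libraries, for Egfr (black squares), the 6 genes most like it (green) and the 3 most opposite to it (purple). In HFDfri the green points lie above 0 in replicates 1 and 3 and below 0 in replicates 2 and 4, as Egfr does.

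Other genes of the pathway were taken from lists by role, 72 genes in all, of which 67 were tested. The lists were made with earlier results of these data known, so the counts over them are a description. One of them, Lrig1, passed the adjusted threshold, which is 1.49% of the 67, against 1.05% of all tested genes. An unadjusted p under 0.05 was found for 15 of them, or 22.4%, against 21.2% of all tested genes, and 8.96% had no overlap between the groups, against 7.69%. Of the 67, 44 were higher and 23 lower in HFDfri, which is 65.7% higher, against 49.1% of all tested genes. The median log2 difference was 0.12, against -0.01 for all tested genes.

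Lrig1 encodes a membrane protein that binds the receptors of this family and promotes their degradation. It had 12.8, 12.3, 11.1, 14.4 and 14.6 CPM in HFDfre replicates 1 to 5, and 19.96, 17.9, 23.04 and 17.8 CPM in HFDfri replicates 1 to 4. Every HFDfri library was above every HFDfre library. The mean of Lrig1 was 13.04 ± 1.49 CPM across HFDfre (SD, n = 5) and rose in HFDfri to 19.7 ± 2.46 CPM (SD, n = 4). The log2 difference was 0.59 ± 0.12 (SE), and edgeR's quasi-likelihood test gave a Benjamini-Hochberg adjusted p of 0.0407. It passed in 8 of 19 alternatives, with edgeR, DESeq2 or limma adjusted p from 0.000957 to 0.153 over all of them. It did not pass without any one of the HFDfre libraries or without HFDfri 3 or HFDfri 4, where the log2 fold change ran from 0.51 to 0.64. No other of the 14 negative regulators passed, and 9 were higher and 5 lower in HFDfri.

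In the remaining lists 0 genes passed the edgeR adjusted threshold. Beside the counts by list, 49.1% of all tested genes were higher in HFDfri and 21.2% had an unadjusted p under 0.05. The other ligands, of which 2 of 6 were tested, were represented by Nrg4, a neuregulin, at 8.59 ± 2.55 CPM in HFDfre and 10.3 ± 2.36 in HFDfri, and by Ereg at 0 to 0.280 CPM over the 9 libraries. Of the genes of ligand release, 3 were higher and 2 lower, with 1 at an unadjusted p under 0.05. Adam10, a protease that sheds ligands from the membrane, was at 18.9 ± 1.43 and 19.9 ± 0.24 CPM, and Adam17, the main protease for Tgfa and Areg, at 10.9 ± 1.64 and 12.7 ± 0.541 CPM. Of 18 adaptor and RAS-MAPK genes, 10 were higher and 8 lower, 3 of them at an unadjusted p under 0.05. Map2k2, a kinase of the cascade, had a log2 fold change of -0.16 ± 0.10 (SE).

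Of 8 genes of the PI3K, PLC and SRC branch, 5 were higher and 3 lower, with 2 at an unadjusted p under 0.05. Akt2, the main AKT kinase of liver, averaged 53.1 ± 6.45 CPM across HFDfre livers (SD, n = 5), against 69.6 ± 6.74 CPM across HFDfri livers (SD, n = 4), at an edgeR adjusted p of 0.0871. It passed in 2 of 19 alternatives, DESeq2 and the fit without HFDfri 1. Pik3r1, a regulatory subunit of PI3K, was at 59.8 ± 4.25 and 57.9 ± 8.27 CPM. Of 9 genes of receptor ubiquitination and endocytosis, 6 were higher and 3 lower, with 1 at an unadjusted p under 0.05, and the most abundant were Epn1, an endocytic adaptor, at 90.4 ± 10.2 and 84.4 ± 5.20 CPM and Usp8, a deubiquitinase, at 38.9 ± 1.43 and 42.7 ± 3.18 CPM. Of 11 tested ERK target genes, 9 were higher (81.8%, against 49.1% of all tested genes) and 2 lower. An unadjusted p under 0.05 was found for 4 (36.4%, against 21.2%), of which 2 were higher and 2 lower. Some of the 9 were low or nearly unchanged. Etv4 averaged 0.112 CPM in HFDfre and 0.149 in HFDfri, and Dusp5 had a log2 fold change of 0.01. The most abundant of the 11 were Phlda1, at 82.6 ± 35.4 CPM in HFDfre and 42.5 ± 13.4 CPM in HFDfri (edgeR adjusted p = 0.142), and Ccnd1, the cyclin D1 gene, at 14.2 ± 4.804 and 18.4 ± 8.21 CPM (edgeR adjusted p = 0.539).

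**Figure D5:**
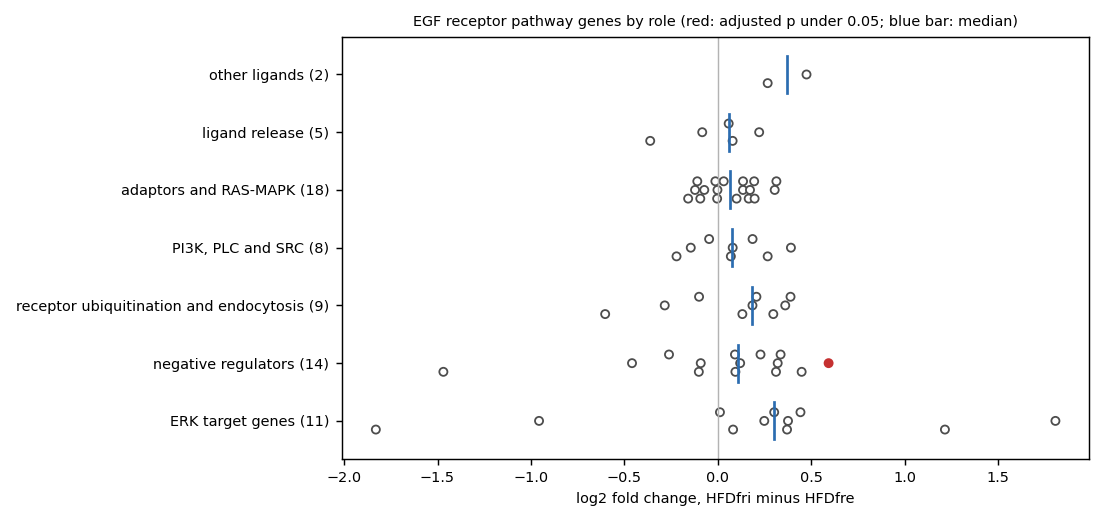
Log2 fold change, HFDfri minus HFDfre, of 67 tested pathway genes by list, with the number tested in brackets, 1 point per gene and a blue bar at the median. The 1 filled red point is Lrig1 at 0.59, and the medians run from 0.06 to 0.37.

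Markers of other cells were summed in each library beside these results. The summed level of 6 cholangiocyte markers was 25.5 to 46.5 CPM in HFDfre and 23.9 to 47.0 in HFDfri, that of 6 sinusoidal endothelial markers 66.4 to 79.0 and 55.4 to 87.1, that of 6 stellate cell markers 103 to 169 and 87.1 to 158, and that of 6 Kupffer cell markers 48.8 to 112 and 60.2 to 78.6. These ranges overlapped, but the most abundant gene dominated some sums, so they do not show that cell composition was unchanged. Spp1, at a mean of 32.1 CPM in HFDfre and 26.4 in HFDfri, dominated the cholangiocyte sum. Sox9, of the same list, averaged 1.90 and 3.62 CPM, and of the 5 tested there 2 were higher and 3 lower. Dcn dominated the stellate cell sum, at 84.3 and 76.9 CPM. The 5 lymphocyte markers were all lower in HFDfri, with sums of 1.37 to 2.66 and 0.570 to 1.26 CPM that did not overlap. All 6 pericentral hepatocyte markers were lower, with overlapping sums of 8890 to 10700 and 8170 to 9070 CPM, and of 6 periportal markers 3 were lower, with sums of 5410 to 6160 and 3980 to 6660 CPM. HFDfri 1 had both the lowest pericentral and the lowest periportal sum. Of 3 adipocyte markers 2 were at 0 in all libraries, as were 2 of 3 pancreas markers, Cpa1 and Pnlip, while the third, Cela1, was at 9.96 to 16.8 CPM in HFDfre and 17.2 to 25.3 CPM in HFDfri, again without overlap. None of these markers passed the edgeR adjusted threshold, and their part in the result of Egfr was not tested. The part of the shares of major urinary protein genes and of the ribosomal RNA-like locus was not tested either. A fit with the share of that locus as a covariate was added after the data were seen and was not a test of its part. There the log2 fold change of Egfr was 1.96 ± 0.38 (SE), and Egfr did not pass the edgeR adjusted threshold. In that fit 38 genes passed, against 150 in the main fit.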

How the data were processed

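Total RNA of 9 livers had been sequenced by the authors. Per the labels, reads were aligned with HISAT2 to mm10 and assembled with StringTie, and the deposited table holds estimated counts per gene as whole numbers. Low values pile up at 4 (3990 gene and library pairs, against 2172 at 3 and 1840 at 5), so a value is not always a number of reads. The labels and the methods of the study name different library kits. Use of strand and the gene annotation are not given in the sources used here.

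The counts were tested with edgeR 4.0.16 in R 4.3.3, with TMM scaling, a filter on low counts by group (filterByExpr), the quasi-likelihood test and Benjamini-Hochberg adjustment over 14220 genes at 0.05. CPM used TMM-scaled library sizes. Exon lengths came from GENCODE M21 (GRCm38), where 96.3% of the gene IDs were found. The text names the 10 members, pathway genes past the threshold or else the 2 most abundant of each list (some named results are not reported here), and the 6 genes most and 3 least like Egfr by Pearson's r of deviations of log2 CPM (prior count 2) from the group means. Members and lists were chosen with earlier results of these data known. Alternatives were DESeq2 1.42.0, limma-voom 3.58.1, other scalings and filters, a robust fit, counts divided by 4, the replicate number as a block, each library left out and, added after seeing the data, the share of Gm26924 as a covariate. On simulated data for this comparison with 14220 genes, 70 of 100 genes changed by 1 and 87 of 100 changed by 2 on the log2 scale were recovered, with 12 false calls. Counting intervals are not given, since the values are estimates.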

Additional observations from a re-analysis of the deposited data

Results flagged for a closer look

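In 3 of 46 sets of values, a gene within a group, 1 library stood far from the others by Dixon's criterion, where chance gives about 1 in 20, or 2.3 sets. Tgfa in HFDfri had a log2 CPM of 2.735 in HFDfri 1 and 3.639 to 3.765 in the rest, and the gap took 0.877 of the whole range. Hbegf in HFDfre had a count of 0 in HFDfre 4, with a log2 CPM of -5.154 against -2.33 to -1.377 elsewhere, and the gap took 0.748 of the range. The log2 value of a count of 0 is set by the prior count of 2, so this gap depends on that choice. Epn1 in HFDfre had a log2 CPM of 6.759 in HFDfre 4 and 6.384 to 6.471 in the remaining libraries, with a gap that took 0.767 of the range.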

How the results depend on the processing

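The count of genes past the adjusted threshold was 150 with edgeR. It was 1033 with DESeq2, 76 with library totals, 72 without a filter and 38 with the share of Gm26924 as a covariate, and it ran from 6 without HFDfre 3 or HFDfre 5 to 1106 without HFDfri 1. With library totals, 72.4% of the calls were higher in HFDfri and the median of all genes moved by 0.06 (log2). Of the members, 1 (Egfr) was called, and 0 under the robust fit and the covariate. Egfr passed in 10 of 19 alternatives. Leaving out single libraries gave 0 to 1, with 0 without any one of the HFDfre libraries or without HFDfri 3. Of the pathway genes, 1 was called, against 5 with DESeq2 (Lrig1 and Akt2 among them), 0 with library totals, 0 without a filter and 0 with the covariate, and 0 to 5 when single libraries were left out. Egfr and Lrig1 kept their direction in the 19 alternatives. The causes were not tested.

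With the replicate block, 0 genes, 0 members and 0 pathway genes were called by edgeR, with 2536 genes at an unadjusted p under 0.05, and the log2 fold change of Egfr was 1.66. The deviations of libraries with the same replicate number had correlations of 0.027, 0.0813, -0.136 and 0.0339. The replicate number is only the number in the sample titles, and HFDfre 5 has no HFDfri library with its number. These values therefore do not settle whether libraries were paired. Libraries that share a number in the original column names were not compared. Depth limits Areg, Hbegf, Erbb2 and Egf most.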

Other observations

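Some pathway genes outside the naming rule were chosen after their values were seen. Spry1, Spry2 and Spry4 encode Sprouty proteins, inhibitors of receptor tyrosine kinase signalling, and none of the 3 passed the edgeR adjusted threshold. Spry2 had 0.674, 0.405, 0.474, 0.604 and 0.420 CPM in HFDfre replicates 1 to 5 and 0.0890, 0.304, 0.190 and 0.148 CPM in HFDfri replicates 1 to 4, without overlap, which 7.69% of tested genes also showed (edgeR adjusted p = 0.109). Its estimated counts in HFDfri were only 5 to 22, close to the limit of detection. Spry1 averaged 3.17 CPM in HFDfre and 2.31 CPM in HFDfri, also without overlap (edgeR adjusted p = 0.132). Spry4, the most abundant of them, was the other way, at 6.78 ± 2.10 CPM in HFDfre and 9.25 ± 3.05 CPM in HFDfri (SD), with overlap (edgeR adjusted p = 0.322). Egr1, an immediate early target of ERK, had 34.1 CPM in HFDfri 1 and 2.38 to 4.98 CPM in the other 8 libraries. Myc, another target, had 12.7, 6.87, 12.5, 2.20 and 2.98 CPM in HFDfre replicates 1 to 5 and 1.57 to 3.04 CPM in HFDfri (edgeR adjusted p = 0.085), and it passed the adjusted threshold with DESeq2.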
